A study of Mus musculus with 16 samples.

Results

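Metastases that grew in the body wall, under the skin or in the groin, were compared with metastases of the same tumor type in the liver, the heart, the mediastinal lymph nodes and the parietal pleura. A metastasis was counted as body wall from its labelled site alone, which gave 3 of the 9 metastases profiled and 3 of all 16 arrays. Tumor 20, labelled a subcutaneous or body wall metastasis, and tumor 21, an inguinal metastasis, came from mouse 1, and tumor 27, a subcutaneous metastasis, came from mouse 3. The 6 metastases of other sites were tumor 19 (liver, mouse 1), tumor 23 (liver, mouse 2), tumors 25 and 26 (heart and mediastinal lymph node, mouse 3) and tumors 32 and 33 (mediastinal lymph node and parietal pleura, mouse 4). The remaining 7 arrays held primary lung adenocarcinomas and served as a background level.

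All tumors arose in p53R172HΔg/+ K-rasLA1/+ mice. K-rasLA1 is a latent allele that is switched on by rare recombination in single somatic cells of any tissue, so that it marks no cell type, and p53R172HΔg is a knock-in missense allele of the tumor suppressor p53 carried by every cell. The primary tumors and every metastasis share both alleles, the 9 metastases came from males, and neither a treatment nor an age is given in the sources used here. Body wall metastases therefore exist for 2 mice only, and 2 of the 3 share 1 animal. Each tumor gave 1 array, and the p-values below measure the spread between these tumors.

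A metastasis is made of tumor cells together with the vessels, fibroblasts and immune cells they recruit and whatever host tissue they grow into. In the body wall the neighbouring tissues are skeletal muscle, subcutaneous fat and dermis, in which contractile proteins, adipokines and lipid-binding proteins, and keratins are made. An array of a whole tumor reads all of these cells at once, so a change in the number of cells of 1 type and a change in RNA per cell cannot be told apart.

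Genes of fast-twitch skeletal muscle were higher in the body wall metastases, through tumors 21 and 27 and not through tumor 20, and of the 40 gene lists examined theirs had the most members under an unadjusted p of 0.05. The matrix proteoglycan genes Dcn and Lum and the endothelial genes Vwf and Tie1 were lower, and all 4 were lower within both mice. For Tie1 this follows from groups that did not overlap. The fibroblast and endothelial lists were less uniform, with 4 of 16 and 7 of 14 genes lower within both mice. Vwf and Tie1 were dim in the body wall, and the related proteoglycan gene Fmod was higher within both mice. Of the adipocyte genes Adipoq, Car3 and Fabp4 were high in both body wall metastases of mouse 1 and low in that of mouse 3, but the lymph node metastasis 26 was above tumor 21 in all 3, and 1 of 14 adipocyte genes measured passed an unadjusted p of 0.05. Across the whole array no probe set passed Benjamini-Hochberg adjustment in limma (0 of 22626, 0%, smallest adjusted p 0.737), so every gene below is given as a difference that did not pass over all probe sets. At an unadjusted p under 0.01, 84 probe sets were higher (0.371%) and 41 were lower (0.181%) in the body wall, against about 226 that 1% of the tests comes to. The higher ones made up 67.2% of these calls, but 46.2% after quantile normalization and 43.1% after centring each array on its median, so the balance of directions depends on the scaling. At p under 0.05, 546 probe sets were higher (2.41%) and 261 lower (1.15%), 807 in all (3.57%), and an unpaired form of the methods' t-test also gave 0 after adjustment.

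Each body wall metastasis was closer to the other metastases of its own mouse than to those of other mice. Over 17204 probe sets with a mean of at least 24.3, the 25th percentile of intensity, each body wall metastasis correlated with the other-site metastases of its own mouse at r = 0.943 to 0.952 and with those of other mice at 0.843 to 0.918. Tumors 20 and 21 correlated at 0.963, whereas tumor 27, the body wall metastasis of mouse 3, correlated with them at only 0.875 and 0.876. Between a body wall metastasis and another metastasis of the same mouse, 705 to 954 of these probe sets (4.1% to 5.55%) differed at least 2-fold, and between the body wall metastases of the different mice 2035 to 2246 (11.8% to 13.1%) did. Pairs without a body wall tumor did not all follow the mouse, since tumors 25 and 26 of mouse 3 correlated at 0.906 and the liver tumors 19 and 23 of different mice at 0.927. In a limma fit over the 6 tumors of mice 1 and 3 with both terms, 87 probe sets (0.385%) passed an adjusted p of 0.05 for mouse (1268, 5.6%, at an unadjusted p under 0.01) and 0 for body wall, for which 133 (0.588%) had an unadjusted p under 0.01. The median intensity of the 9 arrays lay between 76.6 and 85.5, with body wall tumors 21 (85.5) and 27 (83) the brightest and the other 7 at 76.6 to 79.9, so that brightness lay partly along the comparison.

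**Figure D1:**
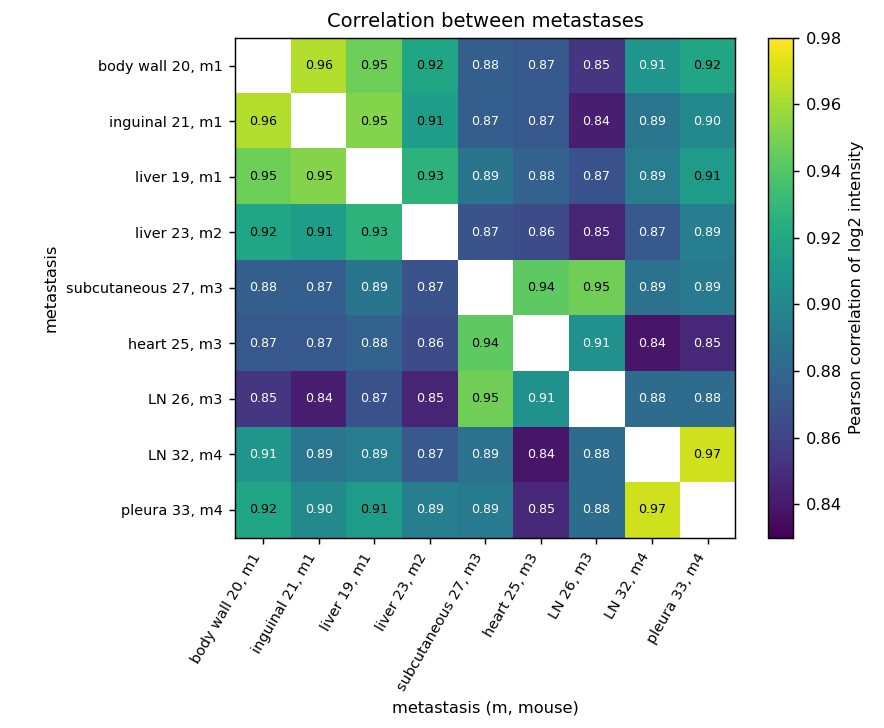
Pearson correlation of log2 intensity between each pair of the 9 metastases, over 17204 probe sets with a mean of at least 24.3, with tumors ordered by mouse on both axes and the colour giving r. Body wall tumors 20 and 21 sit with liver tumor 19 of the same mouse, and body wall tumor 27 sits with tumors 25 and 26 of mouse 3.

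Skeletal muscle contracts through sarcomeres, in which myosin heads pull on actin filaments when calcium binds the troponin complex. Fast fibres use their own isoforms of these proteins, and their genes are switched on by the MyoD family, which binds E boxes (CANNTG), and by serum response factor, which binds CArG boxes. The 250 bases before the annotated start of 4 of the muscle genes that the comparison turns on are shown to give the sequence from which each is transcribed, from the RefSeq annotation of GRCm38.p6, 5′ to 3′ on the coding strand, with E boxes and CArG boxes in capitals. The windows are chr2:164779735-164779984 on the minus strand for Tnnc2, chr8:123894776-123895025 on the minus strand for Acta1, chr11:67237562-67237811 on the plus strand for Myh4 and chr7:19410844-19411093 on the plus strand for Ckm.
Tnnc2: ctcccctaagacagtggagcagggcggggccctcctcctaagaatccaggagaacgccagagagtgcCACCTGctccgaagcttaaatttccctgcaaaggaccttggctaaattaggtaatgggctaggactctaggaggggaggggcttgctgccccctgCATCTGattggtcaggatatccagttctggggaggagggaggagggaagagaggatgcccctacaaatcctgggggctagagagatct
Acta1: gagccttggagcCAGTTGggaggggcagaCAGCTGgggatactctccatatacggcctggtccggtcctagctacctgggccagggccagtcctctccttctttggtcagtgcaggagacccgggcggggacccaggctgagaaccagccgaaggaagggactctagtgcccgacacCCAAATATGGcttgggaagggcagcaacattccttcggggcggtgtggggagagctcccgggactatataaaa
Myh4: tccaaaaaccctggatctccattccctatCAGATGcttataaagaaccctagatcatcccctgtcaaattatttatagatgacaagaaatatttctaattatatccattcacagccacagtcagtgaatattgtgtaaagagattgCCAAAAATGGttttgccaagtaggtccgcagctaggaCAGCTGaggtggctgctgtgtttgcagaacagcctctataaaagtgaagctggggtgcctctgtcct
Ckm: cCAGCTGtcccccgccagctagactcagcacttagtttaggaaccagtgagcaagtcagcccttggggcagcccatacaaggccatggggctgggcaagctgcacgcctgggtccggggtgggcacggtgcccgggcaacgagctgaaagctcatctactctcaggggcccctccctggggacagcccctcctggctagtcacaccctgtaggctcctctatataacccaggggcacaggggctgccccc
Tnnc2, Acta1 and Myh4 each held 2 E boxes and Ckm held 1, and Acta1 and Myh4 each held 1 CArG box. E boxes were searched as letters that read the same on both strands, and CArG boxes on both strands. E boxes are common, since 66.2% of 32851 RefSeq windows of this length held at least 1 and 31.8% held at least 2, and 1.47% held a CArG box. Of the 13 windows found for 12 of the 18 skeletal muscle genes listed, 10 held an E box (76.9%) and 2 a CArG box (15.4%). These matches describe letters and not binding.

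Of the 18 skeletal muscle genes listed, 17 were measured and 14 of them were higher in the body wall metastases. Of the 17, 6 had a limma p under 0.05, all of them higher (Tnnc2, Tnnt3, Acta1, Myh4, Mylpf and Myoz1), beside 2.24% of all 12393 genes that were higher at this threshold. The median difference of the list was 0.38 on the log2 scale, against 0.06 for all genes, and 12 members were higher in both mice. None passed after adjustment over all probe sets (adjusted p = 0.978 for each of the 6, limma). The differences below are given on the log2 scale with their standard error (SE), with the side of the unadjusted threshold on which limma put them.

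Tnnc2, the calcium-binding troponin subunit of fast fibres, measured 18.9, 224 and 73.6 in tumors 20, 21 and 27 and 13.3 to 19.8 (median 14.2) in the metastases of other sites (intensity). Tumors 21 and 27 stood above every other tumor, primary tumors included (7.54 to 22.7), while tumor 20 lay inside the range of the other sites. The log2 difference was 2.19 ± 0.62 (SE), and it was 2.28 within mouse 1 and 2.34 within mouse 3. Acta1, the skeletal muscle actin, measured 59, 572 and 372 in the body wall and 40.7, 50.8, 167, 28.3, 45.4 and 46.6 in tumors 19, 23, 25, 26, 32 and 33. The heart metastasis, tumor 25, was above tumor 20, and the other 5 were below it. Acta1 differed by 2.15 ± 0.75 (SE), and the within-mouse differences were 2.18 and 2.44.

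Myh4, the myosin heavy chain of the fastest fibres, measured 7.06, 185 and 43.2 in tumors 20, 21 and 27 against 5.40 to 14.6 (median 7.26) at other sites and 2.24 to 8.31 in the primary tumors. Again tumor 20 was at the level of the other sites, and the difference was 2.31 ± 0.85 (SE). Mylpf, the fast regulatory myosin light chain, was 15.8, 261 and 92.3 against 14.4 to 26.9 (median 19), a difference of 1.88 ± 0.72 (SE). Tnnt3, the tropomyosin-binding troponin of fast fibres, was 16.4, 107 and 54.9 against 7.85 to 21.9 (median 17.1), a difference of 1.55 ± 0.55 (SE). Each of these genes was highest in the inguinal tumor 21 and next highest in the subcutaneous tumor 27.

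The same order held for 3 genes that missed the threshold. Actn3, which anchors actin at the Z disc of fast fibres, measured 11.6, 174 and 29.3 against 8.42 to 22.6 (median 11), a log2 difference of 1.68 ± 0.75 (SE). Atp2a1, the calcium pump that relaxes the fibre, measured 19.8, 311 and 73 against 17.7 to 40.04 (median 27), a log2 difference of 1.51 ± 0.72 (SE). Ckm, the muscle creatine kinase, measured 151, 502 and 311 against 122 to 208 (median 171), a log2 difference of 0.80 ± 0.37 (SE), and primary tumors spanned 138 to 193. Myoz1, a Z disc protein, passed the threshold with a small difference of 0.38 ± 0.16 (SE), from 48.6, 47.7 and 51.3 against 31.9 to 50.8.

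Other muscle genes did not follow. Myh1, the myosin of intermediate fast fibres, was 45.6, 26.2 and 30.03 in the body wall and 30.9 to 68.8 elsewhere, and Myh2 was 40.7, 41.7 and 39.6 against 25.8 to 44.8. Des and Tcap, which other muscle types also use, overlapped between the groups. Summed over the 17 measured genes, intensity was 868, 2904 and 1647 in tumors 20, 21 and 27, against 709 to 1056 at other sites and 776 to 924 in primary tumors.

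The call on these genes rests on few tumors. Without tumor 21, 1 of the 17 genes kept a limma p under 0.05, and without tumor 27 also 1, while without tumor 20 there were 8. With mouse as a block the count was 1 (Tnnc2), and without mouse 3 it was 0. Without tumor 21 the log2 difference was 1.33 for Tnnc2, 1.5 for Acta1, 1.17 for Myh4, 0.93 for Tnnt3 and 0.95 for Mylpf, against 2.13, 1.81, 2.22, 1.42 and 1.70 without tumor 27, and Tnnc2 alone kept its call. Mylpf also lost its call without liver tumor 19 (1.78), and Myoz1 when any 1 of 8 metastases was left out and with arrays centred or quantile normalized. The tumors were dissected free of adjacent tissue before RNA was extracted, and the part of neighbouring muscle in these values was not tested.

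**Figure D2:**
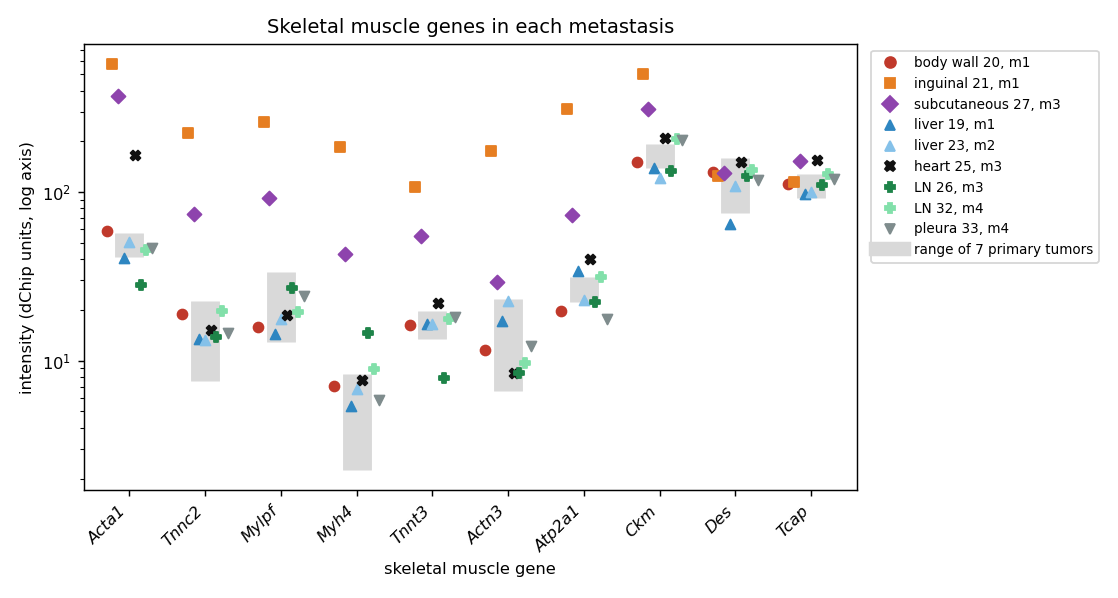
Intensity of 10 skeletal muscle genes (log axis) in each of the 9 metastases, with a point per tumor and a grey bar for the range of the 7 primary lung tumors. For Acta1, Tnnc2, Mylpf, Myh4, Tnnt3, Actn3, Atp2a1 and Ckm the body wall tumors 21 and 27 sit above all other-site tumors, and tumor 20 sits among them, whereas Des and Tcap overlap.

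Adipocytes store fat and secrete adipokines, and some of their genes divided the body wall metastases by mouse. Adipoq, which encodes adiponectin, measured 440.4, 108 and 10.9 in tumors 20, 21 and 27 and 13.1, 11.1, 13.5, 337, 28.3 and 57.1 in tumors 19, 23, 25, 26, 32 and 33. Both body wall tumors of mouse 1 and the mediastinal lymph node tumor 26 of mouse 3 were high, and body wall tumor 27 was the lowest of all 9. The difference was 4.06 within mouse 1 and -2.63 within mouse 3, in opposite directions.

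Car3, a carbonic anhydrase abundant in fat and slow muscle, measured 1125, 586 and 60.8 in the body wall and 21.8 to 1012 (median 56.5) elsewhere, where tumor 26 was highest. Fabp4, the fatty acid carrier of adipocytes, measured 1787, 829 and 60.4 against 39.7 to 1105 (median 422). In both genes tumors 20 and 21 were above liver tumor 19 of the same mouse (25.5 and 147), and tumor 27 was below tumor 26 (1012 and 1105).

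Cidec, a protein of the lipid droplet surface, was the only one of the 14 adipocyte genes measured with a limma p under 0.05. It measured 133, 107 and 59.6 in tumors 20, 21 and 27 against 41.7 to 62.4 at other sites and 52 to 60.02 in primary tumors. Tumors 20 and 21 exceeded every other tumor and tumor 27 lay within the range of the rest, which gave a difference of 0.79 ± 0.25 (SE) (0.99 within mouse 1, 0.34 within mouse 3). Without tumor 20 the difference was 0.54 and without tumor 21 it was 0.70, and neither passed in limma.

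Lpl, the lipase that frees fatty acids from lipoproteins, was 712, 763 and 90.5 and Pparg, the master transcription factor of fat cells, 96.6, 97.8 and 6.68 in tumors 20, 21 and 27, against 69.6 to 547 and 11.1 to 90.6 at other sites. Lipe and Pnpla2, the lipases that mobilise stored fat, differed by -0.04 and 0.05 (log2) and overlapped between the groups. Over the list 10 of 14 genes were higher with a median of 0.19, and the median was -0.50 when mouse 1 was left out and -0.03 with mouse as a block. The summed intensity was 6211, 4793 and 1568 in the body wall, against 2371 to 4101 at other sites. Adipose tissue beside the tumors was not tested as a source.

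Keratinocytes, the remaining tissue of the skin, gave no such pattern. Krt5 and Krtdap, made by basal and differentiating epidermis, measured 1.45, 6.08 and 1 and 1.49, 2.50 and 1.001 in tumors 20, 21 and 27, at or near the floor of 1. Krt14, the partner of Krt5, measured 98.3, 76.3 and 77 against 75.4 to 105 at other sites. Of 15 epidermal genes measured 8 were higher and 7 lower, and 0 had a limma p under 0.05. Of the tissues that the body wall labels name or border on, fast muscle genes thus stood above the other sites in tumors 21 and 27, while Adipoq, Car3 and Fabp4 of tumors 20 and 21 were matched by lymph node tumor 26, and epidermal markers did not check the labels.

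Plasma proteins of the hepatocyte were as high in the body wall metastases of mouse 1 as in the liver metastases for some genes and not for others. Ttr, the carrier of thyroxine and retinol, measured 3608, 2916 and 137 in tumors 20, 21 and 27, against 1988 and 1767 in liver tumors 19 and 23 and 51.2 to 502 at the remaining sites. Fabp1, the fatty acid carrier of hepatocytes and enterocytes, measured 455, 483 and 18 against 211 and 51.1 in liver. On another Fabp1 probe set tumors 32 and 33 of mouse 4 (124 and 146) lay between liver tumors 19 and 23 (188 and 29.4). Apoa1, the main protein of high-density lipoprotein, measured 1045, 1772 and 11.7 against 1724 and 1816. Tumors 20 and 21 were above both liver tumors for Ttr and Fabp1, and for Apoa1 tumor 21 lay between them and tumor 20 below. Tumor 27 was far below both for all 3 genes.

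The fibrinogen chains and other plasma proteins were low in all 3 body wall tumors. Fgg measured 8.27, 3.27 and 5.17 in tumors 20, 21 and 27, Fgb 5.34, 21.2 and 1.30, and the liver tumors 19 and 23 held 674 and 109.9 of Fgg and 216 and 46.7 of Fgb. Hpx, which binds heme, measured 84.2, 199 and 59.4 against 1458 and 293, and Ahsg, the fetuin of plasma, 51, 47.4 and 48.5 against 678 and 200.01. For these 4 genes each body wall tumor was below both liver tumors. For Alb, serum albumin, tumor 21 lay between the liver tumors and tumors 20 and 27 below them, with 1158, 2761 and 127 in the body wall and 3234 and 1285 in liver.

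Ambp, the precursor of a plasma protease inhibitor, was the only hepatocyte gene of 15 with a limma p under 0.05. It measured 11.8, 10.2 and 12.8 in the body wall and 167, 55.9, 31.8, 14.2, 34.7 and 16.7 in tumors 19, 23, 25, 26, 32 and 33, so that all 3 body wall tumors were below the other 6, with a difference of -1.67 ± 0.70 (SE). It did not pass without tumor 20, 21, 23, 25, 27 or 32, where the difference was -1.55 to -1.74. Over the list 6 genes were higher and 9 lower.

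**Figure D3:**
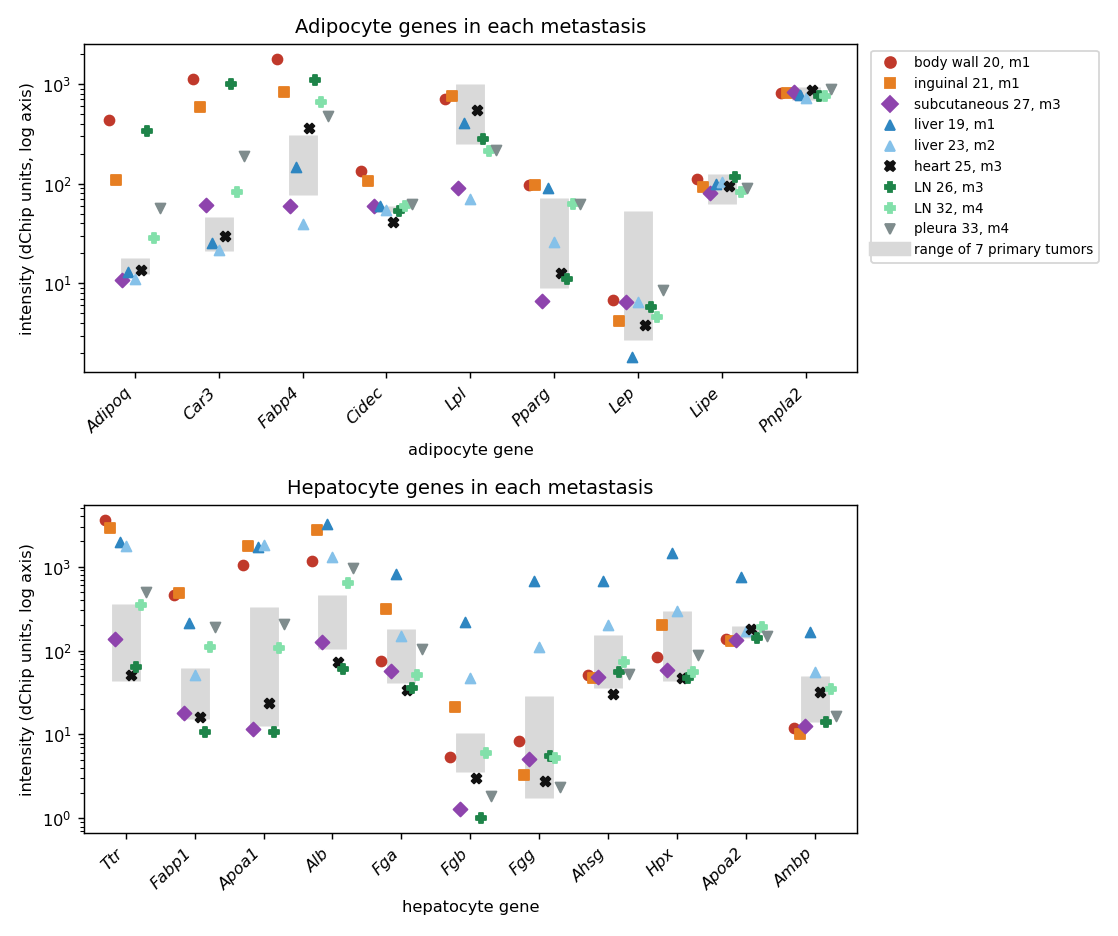
Intensity of 9 adipocyte genes (first panel) and 11 hepatocyte genes (second panel) in each of the 9 metastases on a log axis, with a point per tumor and a grey bar for the range of the 7 primary tumors. Adipoq, Car3 and Fabp4 are high in body wall tumors 20 and 21 and low in 27, and Ttr, Fabp1 and Apoa1 of tumors 20 and 21 sit with the liver tumors while Fgb, Fgg, Ahsg and Hpx sit below them.

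Dcn and Lum, genes of the extracellular matrix, were lower in the body wall. Dcn, decorin, a proteoglycan that coats collagen fibrils, measured 264, 175 and 326 in tumors 20, 21 and 27 and 738, 241, 1113, 1731, 1494 and 903 in tumors 19, 23, 25, 26, 32 and 33. Liver tumor 23 lay among the body wall values and the other 5 were above them, which gave -1.83 ± 0.57 (SE). The difference was -1.78 within mouse 1 and -2.09 within mouse 3, and Dcn was also under a limma p of 0.01 with mouse as a block. Lum, lumican, of the same protein family, measured 81.6, 46.8 and 126 against 350.3, 171, 526, 239, 177 and 122. Only the pleural tumor 33 overlapped the body wall values, and the difference was -1.58 ± 0.49 (SE) (-2.50 and -1.49 within the mice). Without tumor 21 the difference was -1.58 for Dcn and -1.20 for Lum, and neither passed p of 0.05 in limma.

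The other fibroblast genes did not share this. Of 16 measured 7 were higher and 9 lower, with a median of -0.05, and Dcn and Lum were the only ones at p under 0.05 (limma), beside 1.02% of all genes that were lower at this threshold. Col1a1, the main fibrillar collagen, measured 713, 598 and 4968 in tumors 20, 21 and 27 against 457 to 2916 (median 1658), with the subcutaneous tumor 27 above every other metastasis. Fbln2, a matrix protein of elastic fibres, measured 142, 130.1 and 4630.3, and the 2 further tumors of mouse 3 were as high as tumor 27 (4288 and 3875).

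Among 16 collagens 9 were higher and 7 lower. Col6a3, a chain of the microfibrillar collagen VI found around muscle and fat cells, measured 404, 447 and 958 against 232 to 424 (median 311). Tumor 26 was the only other-site tumor above tumor 20, and the difference was 0.81 ± 0.29 (SE). Col4a2, a chain of basement membrane collagen IV, measured 289.6, 527 and 263 against 486 to 666 (median 579.7), a difference of -0.78 ± 0.23 (SE), with tumors 20 and 27 below every other-site tumor. Col18a1, the parent of endostatin in vessel basement membranes, measured 521, 674 and 914 against 682 to 1960.3 (median 1263), a difference of -0.80 ± 0.35 (SE). Col4a2 was under a limma p of 0.01 and the other 2 under 0.05, each with an adjusted p of 0.978. Without tumor 27 the difference of Col6a3 was 0.42 and did not pass, and the median of the collagen list moved from 0.03 to -0.62. Col18a1 did not pass with mouse as a block, where its difference was -0.23, or when any 1 of 6 metastases was left out.

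Endothelial genes were lower by a small amount in the body wall, with 13 of 14 measured members below 0 and a list median of -0.16. The median was -0.005 within mouse 1 and -0.24 within mouse 3, and 7 members were lower and 2 higher within both mice. Vwf, the clotting factor stored by endothelium, measured 1.04, 1.51 and 5.14 in tumors 20, 21 and 27 and 5.26, 2.52, 22.4, 80.7, 9.95 and 23.1 in tumors 19, 23, 25, 26, 32 and 33, against 88.8 to 268 in the primary tumors. Liver tumor 23 alone lay among the body wall values, and the difference was -2.73 ± 1.03 (SE). Tie1, a receptor of endothelial cells, measured 9.08, 6.87 and 7.47 against 10.8 to 19 (median 13.3), so that the groups did not overlap, with a difference of -0.85 ± 0.24 (SE) at intensities all under the 25th percentile. Pecam1 and Cdh5, the junction proteins of endothelium, measured 59.6, 42.3 and 34.3 and 105, 106 and 117 against 32.7 to 72.7 and 65.1 to 404 and overlapped. Tie1 was under a limma p of 0.01 and Vwf under 0.05. The list had 1 call with a floor at the 10th percentile of intensity, and 0 with a floor at the 25th or with dim probe sets left out. Vwf did not pass without tumor 20 (-2.26), 21 (-2.52), 25 (-2.58) or 33 (-2.57).

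Of 12 lymphocyte genes 10 were lower, with a median of -0.17 and 0 at a limma p under 0.05 without a block. Cd3e, a subunit of the T cell receptor complex, measured 3.48, 6.33 and 2.35 against 2.43 to 24.4 (median 8.56), at intensities that are mostly dim, and Cd3d of the same complex 1, 3.11 and 1 against 1 to 13.6. With mouse as a block Cd3e was lower by a difference of -2.42 ± 0.30 (SE), under a limma p of 0.01 (-2.38 and -2.46 within the mice), against -1.02 without it. Of 14 macrophage genes 12 were lower with a median of -0.20, but 12 were higher without mouse 1 (0.52) and 10 without tumor 21 (0.08), and the median was -0.49 without tumor 27. Cd68 was 133, 119 and 213 against 67.4 to 199 and Adgre1 331, 275 and 405 against 280.4 to 384. Neutrophil S100a8 measured 119, 149 and 251, and its partner S100a9 71.8, 64.8 and 144, and only tumor 26 was high (2091 and 1119.9). Cpa3 of mast cells, which are frequent in skin, measured 67.9, 70.2 and 92.1 against 66.7 to 99.8, and Mcpt4, a mast cell protease, 5.76, 13.3 and 7.30 against 3.93 to 28.3. Of 5 red cell genes measured 3 were higher, and Hba-a1, a hemoglobin chain, was 14.7, 17.2 and 38 against 10.5 to 21.4.

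Of 14 cardiac muscle genes 12 were lower in the body wall, with a median of -0.37 that was 0.04 without the heart metastasis, tumor 25. The sum over the list was 559 to 671 in the body wall and 6404 in tumor 25. Tnni3, the cardiac inhibitory troponin, measured 11.1, 4.11 and 2.48 in tumors 20, 21 and 27 and 62.8 in tumor 25, and Myh6, a cardiac myosin, 9.66, 8.29 and 11.2 against 2.32 to 12.1. Of 12 smooth muscle and pericyte genes 10 were higher, and 1 had a limma p under 0.05, Cspg4, a proteoglycan of pericytes, at 43.9, 51.4 and 38.6 against 25.9 to 41, a difference of 0.44 ± 0.18 (SE) that did not pass with arrays centred or quantile normalized or when any 1 of 5 metastases was left out. Acta2 and Tagln, contractile proteins of smooth muscle, measured 1156, 1303 and 2807 and 59.3, 50.2 and 391 in tumors 20, 21 and 27. Acta2 differed by 0.01 without a block and by 0.73 ± 0.29 (SE) with it, where it was under a limma p of 0.05. Msln, made by mesothelium and by some carcinomas, measured 60.4, 64.8 and 1268, and all 3 tumors of mouse 3 were high, while Upk3b, another mesothelial gene, was 69.6, 39.8 and 74.7 against 45.8 to 91.7. Of 9 nerve and Schwann cell genes 5 were higher and 0 had a limma p under 0.05.

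Lung epithelial genes divided the body wall tumors by mouse as they did the metastases at large. Sftpc, the surfactant protein of alveolar type 2 cells, measured 4394, 1096 and 95 and Ager, a receptor of alveolar type 1 cells, 1219, 1691 and 48 in tumors 20, 21 and 27. Both genes were also low in tumors 25 and 26 of mouse 3 (87.5 and 123 for Sftpc, 37.9 and 23.3 for Ager). Scgb3a2, a secretoglobin of airway club cells, measured 306, 349 and 77.7 against 64.5 to 119, a difference of 1.19 ± 0.44 (SE) that came from mouse 1 (1.80 within it and -0.18 within mouse 3) and turned to -0.18 when mouse 1 was left out. It was under a limma p of 0.05 and did not pass without tumor 20 (0.89) or tumor 21 (0.80). Sftpa1, Aqp5 and Scgb1a1, of alveolar type 2, type 1 and club cells, measured 876, 287 and 45.3, 232, 1030.3 and 90.5 and 32.9, 96.4 and 15.9 in tumors 20, 21 and 27. Scgb3a1, another secretoglobin, was 92.2, 121 and 148 against 110.4 to 137.

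At some probe sets the values of the 3 body wall metastases did not overlap those of the 6 other metastases. They lay higher at 231 probe sets (1.02%) and lower at 105 (0.464%), 336 in all (1.49%). With 3 tumors against 6, such gaps also arise among unrelated values, and an excess over these was not tested. Genes were then taken with such a gap, an unadjusted limma p under 0.01 and a brighter group of at least the 25th percentile. Of these, 38 were higher and 6 were lower. The same sign within mice 1 and 3 was also asked, but the gap alone fixes it. Within-mouse values of these genes thus give sizes and no separate check of direction. The 15 higher genes of largest difference and all 6 lower ones are described, and each had an adjusted p of 0.978 over all probe sets (limma).

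Subunits of RNA polymerase III, which makes transfer RNA and other short RNAs, were among the higher genes. Polr3k measured 218, 271 and 192 in tumors 20, 21 and 27 against 99.8 to 142 (median 125) at other sites, a difference of 0.88 ± 0.18 (SE). Of 4 further Polr3k probe sets 3 had the same sign, and 2 a limma p under 0.05. Polr3f measured 50.6, 49.8 and 64.4 against 24.7 to 42 (median 32.3), a difference of 0.77 ± 0.21 (SE). A further and brighter Polr3f probe set overlapped between the groups, at 167, 172 and 323 against 149 to 252. It differed by 0.17 and did not pass a limma p of 0.05.

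Srsf3, a serine and arginine rich splicing factor, measured 388, 338 and 269.8 against 127 to 253 (median 201), a difference of 0.85 ± 0.24 (SE). Its 5 further probe sets were also higher, but their groups overlapped, 1 of them had a limma p under 0.05, and 4 of them were lower within mouse 3. Sf3b6, a subunit of the complex that recognises the branch point, measured 245, 295 and 214 against 124 to 169.6 (median 146), a difference of 0.77 ± 0.15 (SE). Of 3 further probe sets 2 had the same sign, and these 2 were brighter and overlapped between the groups. They differed by 0.33 and 0.30 (0.13 and 0.01 within mouse 3), and neither had a limma p under 0.05.

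Sdhd, the membrane anchor of succinate dehydrogenase, measured 71.9, 101 and 72.7 against 21.8 to 51.7 (median 45.1), a difference of 1.00 ± 0.28 (SE). A further and brighter Sdhd probe set overlapped between the groups. It was higher in the body wall by 0.72 without passing a limma p of 0.05, but differed by -0.08 within mouse 1 and -0.35 within mouse 3. Fastkd5, needed to process mitochondrial RNA, measured 165, 203 and 143 against 88.2 to 103 (median 101), a difference of 0.77 ± 0.14 (SE) with 0.83 within mouse 1 and 0.58 within mouse 3. Eny2, a small subunit of the SAGA coactivator and of the messenger RNA export complex TREX-2, measured 108, 167 and 97.8 against 41.7 to 85.5 (median 60.1), a difference of 1.02 ± 0.27 (SE), while none of its 3 further probe sets had a limma p under 0.05 (differences of 0.08, 0.63 and -0.004). On the probe sets given with their values, each of these 3 genes had tumor 21 as its highest metastasis.

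Dnajc24, which acts in the diphthamide modification of elongation factor 2, had the smallest p of the higher genes. It measured 31.3, 40.05 and 35.8 against 17.5 to 23.2 (median 20.9), a difference of 0.79 ± 0.14 (SE) with 0.61 and 0.96 within the mice, but its 1 further probe set had the opposite sign. Of the Dnajc24 values given, 6 were under the 25th percentile. Npas2, a clock transcription factor, had the largest difference, 1.71 ± 0.48 (SE), from 52.5, 17.1 and 20.7 against 3.65 to 14.2 (median 9.43). Most of its values were dim, the gap between the groups was narrow (17.1 in tumor 21 against 14.2 in tumor 26), and its further probe set had the opposite sign.

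Alg14, an enzyme of N-glycan assembly, measured 19.5, 38.5 and 19.8 against 3.97 to 13.9, with 8 of these 9 values under the 25th percentile. Its 2 further probe sets were brighter and overlapped between the groups. They differed by 0.24 and -0.35, the former by -0.19 within mouse 3 and the latter by -0.74 and -0.72 within mice 1 and 3. Without tumor 21 the difference of the dim Alg14 probe set was 1.06 and did not pass a limma p of 0.05. Cers4, a ceramide synthase, measured 64, 77.4 and 44 against 23.3 to 41.7, and neither of its 2 further probe sets had the same sign. Stk35, a kinase, measured 50.1, 54.2 and 52.2 against 19.3 to 39.5, with nearly equal values in the 3 body wall tumors. Tmem87a, a membrane protein, measured 254, 280.2 and 160.4 against 81.3 to 150.2, and 2310039H08Rik 267, 285 and 178 against 94.8 to 162. Prps1l3 measured 191, 292 and 172 against 110.1 to 144, but it is a near-copy of Prps1 whose messenger RNA may bind the same probes, so its identity is uncertain. The differences of these 6 genes lay between 0.73 and 1.39 (log2).

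Adam33, a membrane-bound metalloprotease of mesenchymal cells, had the smallest p of the lower genes. It measured 20.1, 17.9 and 15.8 in tumors 20, 21 and 27 against 28.4 to 37.1 (median 33.2) at other sites, a difference of -0.87 ± 0.15 (SE), with -0.58 within mouse 1 and -1.17 within mouse 3. Hrh1, the histamine H1 receptor, measured 29.6, 37.4 and 35.5 against 40.6 to 66.7 (median 60.9), a difference of -0.76 ± 0.18 (SE), and its 1 further probe set had the opposite sign. Anxa6, a calcium-dependent membrane-binding annexin, measured 22.8, 24.7 and 23.1 against 25.6 to 46.9 (median 43.4), a difference of -0.73 ± 0.21 (SE). Its 2 further and brighter probe sets overlapped between the groups. They differed by -0.13 and -0.19, and neither had a limma p under 0.05.

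Actl6b, an actin-related subunit of the neuronal BAF chromatin remodelling complex, measured 96.6, 68.9 and 76.9 against 105 to 139.7 (median 128). Trim10, a ring finger protein of erythroid cells, measured 70.4, 55.9 and 60.1 against 79.95 to 114 (median 89.5). Nynrin measured 15, 20.2 and 20.7 against 23.7 to 32 (median 27.9). The differences were -0.64, -0.60 and -0.58 (log2), and all 6 lower genes were dim or moderate in intensity.

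**Figure D4:**
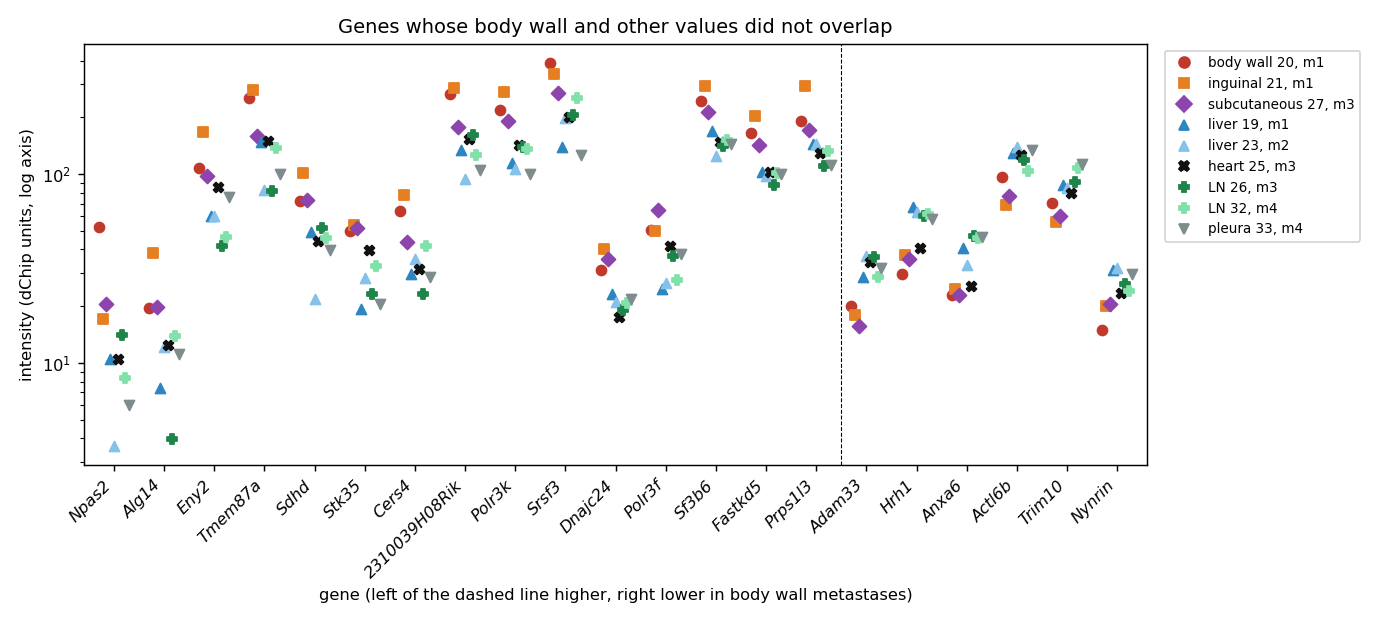
Intensity (log axis) of the 21 genes whose 3 body wall values did not overlap the 6 other-site values and that met the remaining criteria, with a point per metastasis and a dashed line between the 15 higher and the 6 lower genes. On the probe sets shown, the gap between the groups is clear for Polr3k, Fastkd5, Sf3b6 and Dnajc24 and narrow for Npas2 and Anxa6.

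Proliferation genes were higher in the body wall as whole lists, with a positive median within mouse 1 and a negative median within mouse 3. Of 21 mitotic genes 20 were higher with a median of 0.39, but 1 of them, Ect2, which positions the cleavage furrow, had a limma p under 0.05, at 238, 309.9 and 121 in tumors 20, 21 and 27 against 48.3 to 165, a difference of 1.09 ± 0.45 (SE). The median was 0.41 within mouse 1 and -0.28 within mouse 3, and -0.08 when mouse 1 was left out. Of 21 DNA replication genes 19 were higher with a median of 0.52, which was 0.52 within mouse 1 and -0.13 within mouse 3. The mitotic and replication medians were 0.14 and 0.25 without mouse 4, and 0.09 and 0.15 with mouse as a block. With this block 13 mitotic and 17 replication genes were higher. Tumors 32 and 33 of mouse 4 were the lowest metastases on both lists, and liver tumor 23 of mouse 2 was above body wall tumor 20. Pole, the leading-strand polymerase, measured 107, 107 and 101 against 60.9 to 91.9 (median 74.2), with no overlap and a difference of 0.51 ± 0.16 (SE). Rfc3, of the clamp loader, measured 112, 158 and 104 against 55.5 to 107 (median 82.2), a difference of 0.62 ± 0.22 (SE). Beside these counts 58.6% of all genes were higher in the body wall.

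Of 15 respiratory chain genes 15 were higher, with a median of 0.41 that was 0.49 within mouse 1 and -0.10 within mouse 3. Cox5a, a subunit of cytochrome c oxidase, measured 1207, 1483 and 1072 against 773 to 1124 (median 910.1), a difference of 0.41 ± 0.17 (SE), and it was the only member at a limma p under 0.05. Without tumor 27 there were 7. Ect2 did not pass when any 1 of 5 metastases was left out, Cox5a when any 1 of 6 was, and Rfc3 without tumor 21 (0.44). None of these 3 passed with mouse as a block. Of 15 cholesterol and fatty acid synthesis genes 14 were higher with a median of 0.32, which was 0.02 without tumor 21, and 0 had a limma p under 0.05. The median of this list was 0.20 within mouse 1 and -0.05 within mouse 3. Of 20 chemokine genes 16 were lower, and of 8 MHC class II genes 7 were lower, with medians of -0.18 and -0.29, which were 0.07 and 0.31 without mouse 1. Cxcl9, a chemokine that draws T cells, measured 12.2, 7.83 and 7.46 against 2.86 to 11.2, Wif1, a Wnt inhibitor, 3.71, 6.17 and 23.4 against 1.88 to 4.36, and the homeobox gene Hoxc9 1, 2.001 and 2.14 against 2.95 to 7.28. These 3 passed a limma p of 0.05 at dim intensities, Cxcl9 and Wif1 only while nearly every metastasis was kept. Over all 40 gene lists, 536 genes were measured, of which 24 had a limma p under 0.05 (16 higher and 8 lower), 5 a p under 0.01 and 0 an adjusted p under 0.05.

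Mice 1 and 3, which each carried metastases of both kinds, allowed each difference to be set within 1 animal. Over the 17204 brighter probe sets, the body wall minus other-site difference of mouse 1 (2 tumors against 1) and that of mouse 3 (1 against 2) had r = -0.004 across probe sets, and 52.4% had the same sign. At least a 2-fold difference was seen for 276 higher and 213 lower probe sets in mouse 1 and for 279 and 120 in mouse 3. In both mice 17 probe sets were higher and 11 were lower by this much, and 16 and 21 were so in opposite directions. The 17 higher probe sets stand for 13 genes with a symbol, of which 7 are the skeletal muscle genes Tnnc2, Acta1, Mylpf, Myh4, Actn3, Tnnt3 and Atp2a1.

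The 6 higher genes that are not on the muscle list were Fmod, Cdh10, Ywhaz, Ccnd2, Rflnb and Resf1. Fmod, fibromodulin, a collagen-binding proteoglycan related to Dcn and Lum, measured 80.5, 59.5 and 122 in tumors 20, 21 and 27 against 29 in tumor 19 of mouse 1 and 26.5 and 68.6 in tumors 25 and 26 of mouse 3. Tumors 32 and 33 of mouse 4, at 88 and 79.3, overlapped the body wall on this probe set. On another Fmod probe set the groups did not overlap, with 50.6, 47.9 and 56.4 in the body wall against 25.1 to 41.3, a difference of 0.68 ± 0.19 (SE) under a limma p of 0.01, and of 0.89 and 1.04 within the mice. Cdh10, a cadherin, measured 89, 50.4 and 91.8 against 26.9 to 85.4. Ywhaz, a 14-3-3 adaptor protein, measured 35.4, 59 and 81 against 22.3 to 45.3 (median 35.1), with a difference of 0.70 ± 0.31 (SE). Fmod thus ran opposite to Dcn and Lum within both mice.

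The genes at least 2-fold lower in both mice were Dcn, Lum, Tnnt2, Hspb8, Serpina3n, Ltbp2, Ptger3 and Ankrd17. Hspb8, a small heat shock protein of muscle and heart, measured 5.15, 14.3 and 29.5 against 25.3, 34.2, 78.7, 101, 104 and 60.2 in tumors 19, 23, 25, 26, 32 and 33. Tumor 27 alone overlapped the other sites, through tumor 19, and the difference was -2.19 ± 0.63 (SE), with -1.56 and -1.60 within the mice. Serpina3n, a secreted protease inhibitor, measured 212, 226 and 257 against 583, 204, 1319, 818, 319.7 and 263 and overlapped the other sites through liver tumor 23 alone. Tnnt2, the troponin of heart muscle, was highest in the heart metastasis, tumor 25.

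**Figure D5:**
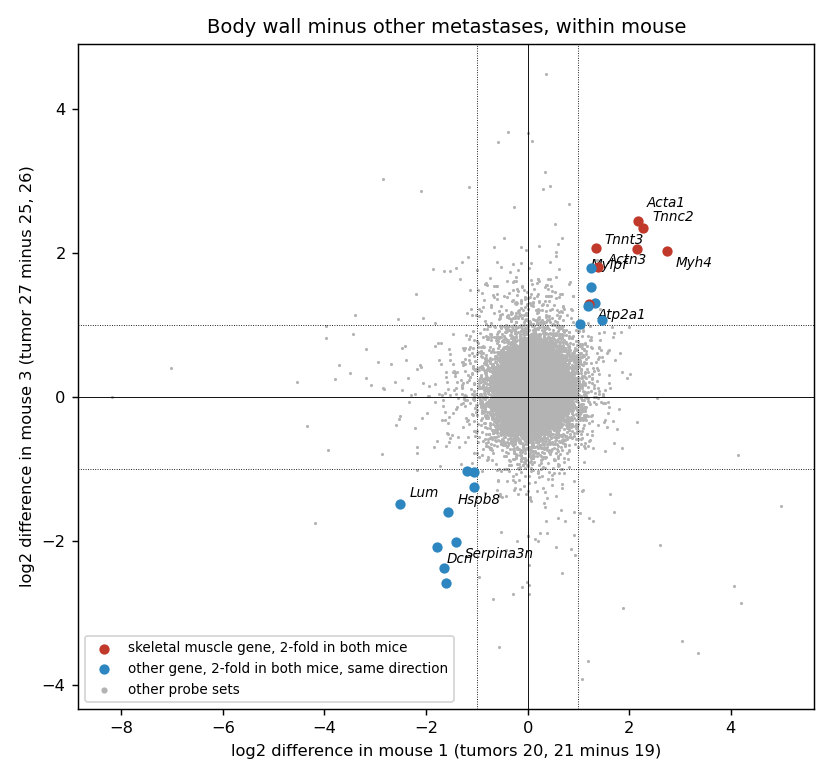
Log2 difference of body wall minus other-site metastases within mouse 1 (horizontal axis) and within mouse 3 (vertical axis), with a point for each of 17204 probe sets. Genes at least 2-fold different in the same direction in both mice are red if on the skeletal muscle list and blue if not. The remaining muscle genes are among the grey points, and dotted lines mark a difference of 1 either way. The cloud has no slope (r = -0.004). The red genes stand in the corner that is high in both mice, a place that the marking rule fixed.

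Differences among the 3 body wall metastases are given as single values, since 1 tumor against another allows no test. The inguinal tumor 21 was above tumor 20 of the same mouse in muscle genes (Myh4, Mylpf, Atp2a1, Actn3, Tnnc2 and Acta1) and in Gldc, the glycine decarboxylase, at 62.1 against 3.43. It was also above it in Hspb1, a small heat shock protein (379.6 against 37.1). Tumor 20 was above tumor 21 in Sharpin, part of the linear ubiquitin ligase (253 against 30.4), and P3h3, a collagen prolyl hydroxylase (199 against 26.7). It was higher in the fat and alveolar genes Adipoq and Sftpc too.

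Among the genes in which tumor 27 was above both body wall tumors of mouse 1 were Hmga2, Cdh11, Tnc and Postn, picked after their values were seen. Hmga2, a chromatin protein of embryonic tissue, measured 64.9, 155 and 1942 in tumors 20, 21 and 27, and Cdh11, a mesenchymal cadherin, 41.3, 38.6 and 604. Tnc, the matrix protein tenascin C, measured 82.7, 87 and 1345, and Postn, periostin, 425, 133 and 1466. All 4 were also higher in tumors 25 and 26 of mouse 3 than in tumors 20 and 21, apart from Postn in tumor 26 (389.8).

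Cpe, a carboxypeptidase that matures peptide hormones, measured 23.3, 27.6 and 1205 in tumors 20, 21 and 27, and 1636 and 1465 in tumors 25 and 26. Prl, the pituitary hormone prolactin, measured 15.8, 14 and 627, with 509 and 731 in tumors 25 and 26 and 12.5 to 23.1 in the metastases of the other mice at other sites. High values of both genes were thus shared by the 3 metastases of mouse 3, whatever their site. Epha3, an ephrin receptor, was high in tumor 27 alone, at 144 against 4.61 and 8.998 in the body wall tumors of mouse 1 and 6.79 to 16.4 at other sites.

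Tumors 20 and 21 were above tumor 27 in S100g, Car14, Slc2a3, Gkn2 and Apoe, also picked after their values were seen. S100g, a calcium-binding protein of absorptive epithelium, measured 327, 294 and 1, and Car14, a membrane carbonic anhydrase, 298, 708 and 10.1. Slc2a3, a glucose transporter, measured 2047, 2029 and 81.3, Gkn2, a secreted gastrokine of stomach epithelium, 7465, 5150.4 and 256, and Apoe, apolipoprotein E, 3560.1, 3069.98 and 157. Liver tumor 19 of mouse 1 was high in all 5 (161, 358, 1488, 3552 and 2919). Other mice were also high in several, with S100g at 677 in tumor 32, and Gkn2 at 8025 and Slc2a3 at 1761 in tumor 23. Car14 was high in mouse 1 alone, with 23.1, 22.3 and 42.5 in tumors 23, 32 and 33. Tumors 25 and 26 of mouse 3 were low beside tumor 27. They held 1 and 1.69 of S100g, 5.84 and 2.03 of Car14, 49.4 and 78.3 of Slc2a3 and 250 and 422 of Gkn2. Apoe was 414, 362, 342 and 274 in tumors 25, 26, 32 and 33.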

How the data were processed

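Total RNA of each tumor was hybridised to 1 Affymetrix Mouse Genome 430A 2.0 array. The deposited values are linear intensities, 1 per probe set: the authors quantified the scans with Microarray Suite and estimated expression with dChip, by its model of perfect match minus mismatch signal and by invariant set normalization. dChip models each probe set over all arrays, so the values of 1 array are not independent of the others, and differences between dim values are imprecise. The number of arrays limits the precision of every value.

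Of 22690 probe sets 64 controls were left out and 22626 tested. Gene names came from the platform annotation, with 20380 probe sets naming 1 gene, 691 several and 1555 none, and only the first were named, for 12393 genes. Values under 1 were raised to 1 and put on the log2 scale, and the 3 body wall metastases were compared with the 6 of other sites by lmFit and eBayes of limma 3.58.1 in R 4.3.3, two-sided, with Benjamini-Hochberg adjustment over all 22626 probe sets. A log2 difference is the body wall mean minus the other-site mean of log2 intensity. Groups came from the labelled sites. The fit had 7 residual degrees of freedom and no mouse term, since the methods give none for this comparison. Metastases of 1 mouse share the animal: deviations from the group means correlated at 0.147 to 0.367 in the 4 pairs of a body wall and another metastasis of the same mouse, against -0.335 to 0.198 in 14 pairs of different mice, and mouse was used as a block in an alternative fit. In gene lists the probe set of highest mean stood for its gene.

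Genes were named by rule. Fewer than 15 passed adjusted p 0.05 in a direction, so up to 15 were taken by size of difference. They had p under 0.01, groups that did not overlap and a brighter group mean at or above the 25th percentile. The same sign within mice 1 and 3 was also asked, which groups that do not overlap always meet. In each list up to 4 members at p under 0.05 and, for resident cells, the first 2 genes were named. Other members, and genes 2-fold different within both mice or among the body wall tumors, were chosen after their values were seen. The body wall group and the gene lists were chosen with earlier results of these data known. Genes without a probe set are not analysed here. The fit was tested on simulated data. Alternatives changed the floor, the filter on dim probe sets, the normalization, the block, the arrays in the fit, the variance model and the test (an unpaired form of the methods' t-test, two-sided with equal variance on the same values, since the methods' own test pairs a metastasis with a primary tumor), and left out each metastasis, mouse and site.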

Additional observations from a re-analysis of the deposited data

Results flagged for a closer look

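Among the 6 metastases of other sites, single tumors stood far from the rest in 7 of the genes described, by Dixon's criterion, which chance meets in about 1 of 20 groups. Heart metastasis 25 was high for Acta1, at 167 with the next highest at 50.8, and for the cardiac troponin Tnni3, at 62.8 with the next at 3.23, and it was low for Hrh1, at 40.6 with the next lowest at 57.7. Lymph node metastasis 26 was high for the neutrophil proteins S100a8, at 2091 with the next at 191, and S100a9, at 1119.9 with the next at 105, and low for Fastkd5, at 88.2 with the next at 97.8. Liver metastasis 23 was low for Sdhd, at 21.8 with the next at 39.6. Adipoq was higher in the body wall of mouse 1 and lower in that of mouse 3, and the log2 differences within the mice were 6.68 apart; this difference was not tested.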

How the results depend on the processing

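The count of probe sets at an adjusted p under 0.05 (limma) was 0 in the reported comparison and 1 with values under the 25th percentile raised to it (Zfp24), 1 without mouse 1 (Epha3, from tumor 27 alone) and 1 without mouse 3 (Ogg1), genes named after their values were seen. Leaving out 1 metastasis at a time gave 0 to 3 such probe sets, the 3 without tumor 27 (Adck1, Crocc and Tnni2, all dim). At p under 0.01 the 84 higher probe sets became 52 with dim probe sets left out, 50 with each array centred on its median, 266 without mouse 3 and 164 without the heart, and 37 (without tumor 21) to 231 (without tumor 27) when 1 metastasis was left out. The 41 lower ones became 12 with dim probe sets left out, 70 with quantile normalization, 66 with centring, 62 with mouse as a replicate block, 68 with this block over 13 arrays, 24 with a trended robust prior, 70 without mouse 1, 143 without mouse 3, 26 without mouse 4 and 82 without the heart, and 28 (without tumor 32) to 94 (without tumor 27) when 1 metastasis was left out. Quantile normalization and centring moved the median of all probe sets from 0.06 to -0.01. With mouse as a block 118 probe sets were higher and 0 passed adjustment, and the unpaired form of the methods' t-test gave 85 higher and 39 lower. Scgb3a2 changed sign without mouse 1 (-0.18). The 21 genes named for groups that did not overlap had p at or above 0.01 in 210 of 607 values over 29 settings and an adjusted p of at least 0.451; their direction is no sign of stability, since the choice of genes largely fixed it. Of 1160 list medians 201 changed sign, and 5 lists kept 1 sign in every setting (skeletal muscle, T and B lymphocyte, endothelium, respiratory chain, and cholesterol and fatty acid synthesis). Within mouse 3, which was not a setting, the median was -0.10 for the respiratory chain and -0.05 for cholesterol and fatty acid synthesis. The cause of these changes was not tested. With 3 body wall tumors from 2 mice, and with 3.75% of values at or under 1, differences of dim genes and of single tumors were not resolved.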
